A study of Mus musculus with 4 samples.

Results

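The Bcl2 family of survival and death genes was followed across 4 cultures of mouse dendritic cells (DCs), through 10 of its members: the anti-apoptotic genes Bcl2, Bcl2l1 and Mcl1, the executioners Bax and Bak1, and the BH3-only genes Bcl2l11, Bid, Bad, Bbc3 and Pmaip1. Members were taken as every non-control probe whose gene name in the scanner tables equals one of these symbols. This gave 19 probes of 41174 on the array, for 10 of 19822 named genes: 4 members had 1 probe, 3 had 2 and 3 had 3. RNA of each culture was labelled with a single dye and hybridised to 1 Agilent array, so no comparison has a replicate, and no p-value or standard error between cultures can be given.

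All cells came from BALB/C bone marrow; the age and number of animals are not given in the labels. Immature DCs (imDCs) were grown in GM-CSF (10 ng/mL) with IL-4 (5 ng/mL), were collected on day 4 and were selected on beads for CD11c. Mature DCs (maDCs) were such imDCs kept 4 to 5 days longer with lipopolysaccharide (LPS, 10 ng/mL), which comes from bacteria and makes DCs mature. The cells named sDCs in the labels came from lineage-depleted progenitors placed on a layer of mesenchymal stem cells (MSCs). LPS was added to them on day 4 and they were collected on day 9. In the last culture, made like the sDCs, a neutralizing antibody against IL-10 (10 µg/mL) was given every 2 days. The labels do not say how sDCs were parted from the MSCs or how much LPS they received. Starting cells, cytokines, time and substrate thus differ together between sDCs and the GM-CSF cultures. LPS also differs between sDCs and imDCs, for which the labels name none. Between maDCs and imDCs, LPS and the 4 to 5 further days of culture differ together and cannot be told apart.

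Bcl2 family proteins set whether the outer membrane of mitochondria is opened, the step that releases cytochrome c and starts caspases. Bax and Bak1 form the pores, Bcl2, Bcl-xL (from Bcl2l1) and Mcl1 hold them in check, and BH3-only proteins such as Bim (Bcl2l11), Puma (Bbc3) and Noxa (Pmaip1) sense stress and bind the anti-apoptotic proteins or the executioners. In DCs the family is known for limiting lifespan: DCs that lack Bim accumulate and survive longer after activation. Much control of these proteins is exerted on protein stability, phosphorylation and splicing, which a signal for messenger RNA does not measure.

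The probes of Bcl2l11, Bad and Bax are shown because the results turn on where they lie. Probe positions are those of the scanner tables, in mouse build mm9; no gene models of that build were used here, so exons and untranslated regions were not assigned. A probe of 60 bases whose ends lie farther apart than that on the genome crosses at least 1 splice junction. The 3 Bcl2l11 probes are given in the order of the gene, on the plus strand of chromosome 2, followed by those of Bad and Bax. For the most downstream Bcl2l11 probe and for the minus-strand Bad probe, the first 30 bases of 60 are shown; no capitals are used, since no base is singled out.
Bcl2l11, upstream probe, chr2:127954736-127955417: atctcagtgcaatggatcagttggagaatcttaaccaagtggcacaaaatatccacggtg
Bcl2l11, middle probe, chr2:127972893-127983988: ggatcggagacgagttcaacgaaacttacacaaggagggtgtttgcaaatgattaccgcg
Bcl2l11, downstream probe, chr2:127988051-127988110: aacagcactgatctctgtatagtccccatc
Bad, plus-strand probe, chr19:7016618-7016677: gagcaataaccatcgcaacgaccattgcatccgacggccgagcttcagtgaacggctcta
Bad, minus-strand probe, chr19:7025594-7025653: tgaacctggcggttcagaaactttggtgtg
Bax, chr7:52721469-52721624, minus strand: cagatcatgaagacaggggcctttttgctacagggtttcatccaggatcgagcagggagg
The upstream and middle Bcl2l11 probes span 682 and 11096 genomic bases and so cross splice junctions, as does the Bax probe with a span of 156 bases. The downstream Bcl2l11 probe spans 60 bases. The pair of Bad probes lie on opposite strands, and the gene is on the plus strand in RefSeq, so the minus-strand probe reads the strand opposite to the gene.

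Levels are log2 of the background-subtracted intensity minus the 75th percentile of the same array, so 0 is the level of a spot at that percentile. A difference of at least 1 log2 unit, 2-fold, was counted as higher or lower. All 19 member probes were well above background on all 4 arrays, and no spot was saturated. Because the efficiency of probes differs, a level is compared between cultures for the same probe and never between probes. Where a gene had several probes, the one with the highest mean level stands for the gene (the brightest probe), and the others are given beside it. Bcl2, Bcl2l1 and Bax each had a probe spotted 10 times per array. The spots of such a probe on an array differed by an SD of 0.029 to 0.062 log2 units, which covers spotting and scanning alone. The imDC array lay on a slide of its own and the other 3 on a second slide, so slide and culture cannot be told apart in any comparison with imDCs.

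The cultures were checked against cell type markers before the members were compared. Of 14 DC marker genes, all 14 were well above background in imDCs and 12 in sDCs, where Irf4 and Clec9a were not. Relative to imDCs, 12 of the 14 were lower in sDCs, with a median difference of -4.63, and Itgax, which encodes the CD11c used for the selection of imDCs, differed by -4.53. All 12 macrophage markers and 11 of 12 stromal markers were higher in sDCs than in imDCs, with medians of 3.64 and 7.37. The sDC culture is therefore called by its label here without a claim that its cells carry a DC profile. The summed signal of the proliferation list, in units of each array's 75th percentile, was 166 in imDCs, 77.2 in maDCs, 56.2 in sDCs and 60.8 in antibody-treated sDCs. The summed signal of the neutrophil list was 1170 in imDCs and 90.8, 149 and 262 in the other 3 cultures in that order. The part of these other cells, or of proliferation, in the member values below was not tested, and in such bulk RNA fewer cells of a type and less RNA per cell cannot be told apart.

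In maDCs 7 member probes were higher and 1 was lower than in imDCs: Bcl2l11 at all 3 probes, Bcl2l1 at 2, Bbc3 and Pmaip1 were higher, and Bid was lower. That is 36.8% of the member probes higher, beside 20.3% of all 25909 measured probes higher and 11.1% lower; measured probes include those seen on a single array of the pair, whose difference is a bound. In sDCs 8 member probes were higher than in imDCs, all of Bcl2, Bcl2l1 and Mcl1 but 1 of Bcl2 together with 1 of Bcl2l11, and Pmaip1 alone was lower. These are 42.1% of the member probes, beside 26.6% of all 28342 measured probes higher and 16.0% lower. Between sDCs and maDCs, 3 member probes were higher in sDCs and 4 were lower, beside 15.2% higher and 15.7% lower of 27073 measured probes. The higher probes were 1 each of Bcl2, Bcl2l1 and Mcl1, and the lower ones were those of Pmaip1 and Bbc3 and 2 of Bcl2l11. The median difference over the 19 probes was 0.59, 0.85 and 0.41 in these 3 comparisons, against 0.14, 0.23 and 0.05 over all measured probes. At 1.5-fold, 10 member probes were higher and 1 was lower in maDCs than in imDCs, beside 32.2% and 21.1% of all measured probes. At that threshold sDCs had 10 higher and 4 lower against imDCs, beside 38.1% and 25.1%, and 7 were higher and 5 lower in sDCs than in maDCs, beside 25.9% and 24.7%. Differences of 2-fold were thus common among all probes, and nothing particular to the family is drawn from its counts.

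**Figure D1:**
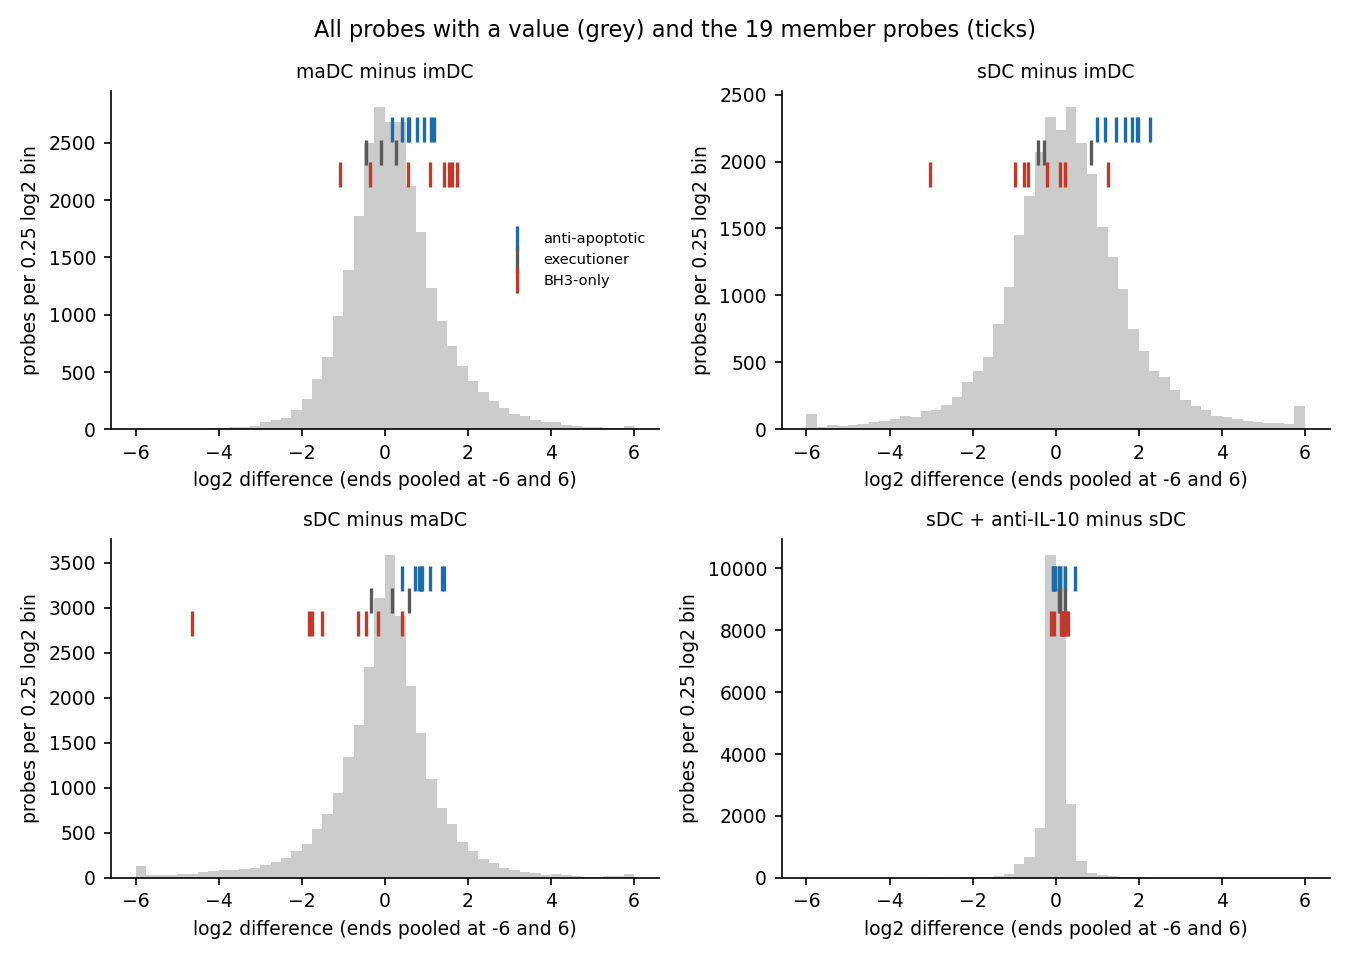
Number of all measured or bounded probes per bin of log2 difference (grey histogram, with larger differences pooled in the end bins) in each of the 4 comparisons, and the 19 member probes as ticks coloured by role, whose height has no meaning. The ticks spread on both sides of 0 in the first 3 comparisons, with the anti-apoptotic ones to the right, and lie near 0 between the sDC cultures.

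The anti-apoptotic members Bcl2, Bcl2l1 and Mcl1 were lowest in imDCs and highest in the sDC cultures. Bcl2a1b and Bcl2a1c, anti-apoptotic genes outside the members, went the other way in sDCs, by -3.05 and -3.92 against imDCs. All 8 probes of the anti-apoptotic members were above imDCs in maDCs, by 0.16 to 1.19. In sDCs all 8 were above imDCs, by 0.99 to 2.27, and above maDCs, by 0.42 to 1.42. At the 2-fold threshold this amounted to 2 of 8 probes in maDCs and 7 of 8 in sDCs against imDCs, and 3 of 8 in sDCs against maDCs. Over all measured probes, 20.3%, 26.6% and 15.2% were higher in these comparisons. The 8 probes belong to 3 genes, so probes of 1 gene are not separate members. The summed signal of macrophage markers was also lowest in imDCs and highest in the sDC cultures. It was 35.9 in imDCs, 155 in maDCs, 411 in sDCs and 364 in antibody-treated sDCs. Single markers did not all follow. In maDCs against imDCs, 9 of 11 measured were higher and 1 lower (Mrc1, -3.04), beside 21.6% and 10.8% of all genes. In sDCs against maDCs, 10 of 12 were higher and 1 lower (Marco, -3.76), beside 14.2% and 16.8%. The part of macrophages was not tested.

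Bcl2l1 encodes Bcl-xL, which binds Bax and BH3-only proteins. Its brightest probe (chr2:152606631-152606690, minus strand) read 0.98 in imDCs, 2.10 in maDCs, 2.97 in sDCs and 2.95 in antibody-treated sDCs. The first 3 cultures were thus well separated, and the sDC cultures read alike: maDCs were 2.17-fold and sDCs 3.97-fold above imDCs, while the antibody difference of -0.03 was smaller than the SD of 0.057 between pairs of spots. The other probes gave 0.94 and 1.19 for maDCs against imDCs, and 1.67 and 2.27 for sDCs against imDCs. These 3 probes lie across 49.1 kb and kept the same order of imDCs, maDCs and sDCs.

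Bcl2 is the founding member of the family and was first found at a translocation in follicular lymphoma. Its brightest probe (chr1:108434793-108434852, minus strand), drawn from transcript variant 1, read -0.13 in imDCs, 0.44 in maDCs, 1.34 in sDCs and 1.29 in antibody-treated sDCs. The sDCs stood 2.76-fold above imDCs and 1.86-fold above maDCs; the difference of 0.57 between maDCs and imDCs was below 2-fold but above the spot SD of 0.058. A second probe 174 kb away, drawn from the other RefSeq variant, read -0.05, 0.11, 0.93 and 1.16 in the same order of cultures, and its sDC difference from imDCs of 0.99 lay just under the threshold. The third, a dim probe made from a cDNA clone, read -3.39, -2.97, -1.55 and -1.09. All 3 probes ordered imDCs, maDCs and sDCs alike, while the antibody differences of -0.05, 0.23 and 0.46 did not share a direction.

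Mcl1 encodes a short-lived protein needed for the survival of many haematopoietic cells. Its brightest probe (chr3:95466855-95466914, plus strand) read 4.57 in imDCs, 5.16 in maDCs, 6.53 in sDCs and 6.47 in antibody-treated sDCs. Both sDC cultures lay above both GM-CSF cultures, with sDCs 3.89-fold above imDCs and 2.58-fold above maDCs. The other probe read 4.88, 5.64, 6.06 and 6.14, so its gap between sDCs and maDCs was 0.42, not 1.37. The direction was the same at both probes, but the size against maDCs was not: the probes differed by 0.95, and 17.7% of 3657 other genes with 2 such probes differed as much or more.

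**Figure D2:**
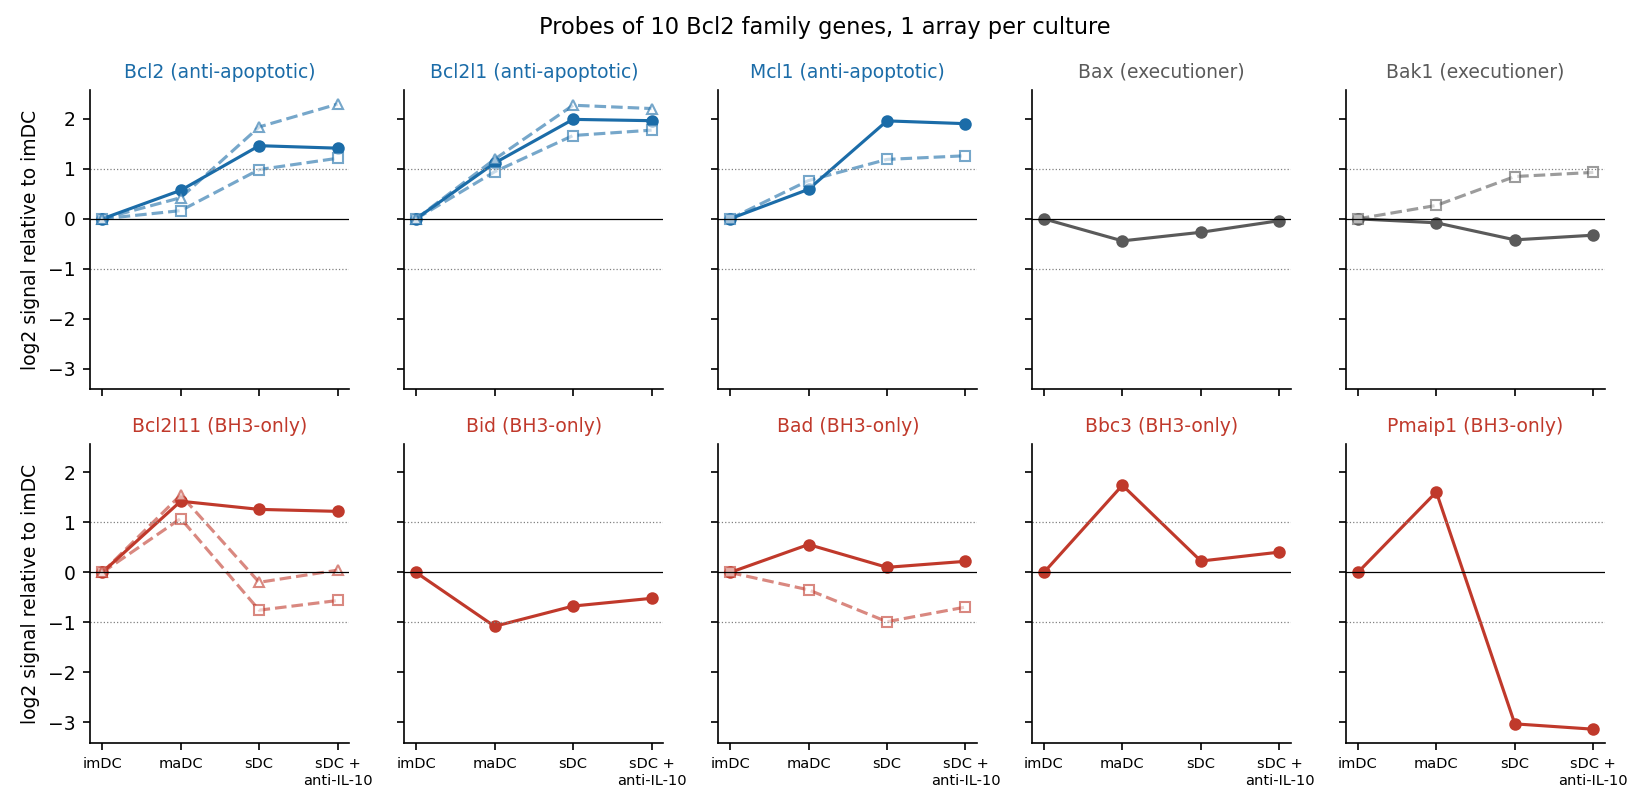
Log2 signal of every member probe relative to the same probe in imDCs, in imDCs, maDCs, sDCs and antibody-treated sDCs (1 array each), with 1 panel per gene; filled points with solid lines are the brightest probe, open points with dashed lines the others, dotted lines mark 2-fold, and lines join cultures for reading and are no time course. Bcl2, Bcl2l1 and Mcl1 step upward from imDCs over maDCs to sDCs, while Bbc3 and Pmaip1 are highest in maDCs.

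The executioners differed less than 2-fold in every comparison, at each of their 3 probes. Bax encodes a cytosolic protein that moves to mitochondria on activation. Its probe read 2.82 in imDCs, 2.38 in maDCs, 2.55 in sDCs and 2.78 in antibody-treated sDCs. The imDC and antibody-treated levels were 0.04 apart, beside an SD of single spots of 0.038 and 0.050 on these arrays. The largest of its differences in the 4 comparisons was -0.44, between maDCs and imDCs. Bak1 encodes the executioner that resides on mitochondria. Its brightest probe read 3.15, 3.07, 2.73 and 2.82 across imDCs, maDCs, sDCs and antibody-treated sDCs, while its dim probe read -2.30, -2.03, -1.45 and -1.37. The Bak1 probes ran in opposite directions between sDCs and imDCs, by -0.42 and 0.85, so these arrays give no direction for that gene.

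The BH3-only genes did not share a direction. Their 8 probes belong to 5 genes, so probes of 1 gene are not separate members. Against imDCs, 5 of the 8 were higher in maDCs, all those of Bcl2l11 among them, and 1 was lower. Over all measured probes 20.3% were higher and 11.1% lower. In sDCs 1 was higher than in imDCs and 1 lower, beside 26.6% and 16.0%. Against maDCs, 4 of the 8 were lower in sDCs and none was higher by 2-fold, beside 15.7% lower and 15.2% higher of all measured probes. Their differences ranged from -1.08 to 1.75, from -3.03 to 1.26 and from -4.64 to 0.41 in these comparisons.

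Pmaip1 encodes Noxa, which binds Mcl1 and is a known target of p53. Its single probe, on chromosome 18, read 3.17 in imDCs, 4.78 in maDCs, 0.14 in sDCs and 0.04 in antibody-treated sDCs. Both GM-CSF cultures were high and both sDC cultures low. The sDCs lay 8.16-fold below imDCs and 24.9-fold below maDCs, and 767 of 28342 and 272 of 27073 measured probes were as low or lower in those comparisons. This was the widest range of any member. The summed signal of mast cell and basophil markers was 26.7 in imDCs, 139 in maDCs, 0.686 in sDCs and 0.883 in antibody-treated sDCs. This sum ordered imDCs, maDCs and sDCs alike. Of these markers, 9 of 9 measured were higher in maDCs than in imDCs, beside 21.6% of all genes. In sDCs 8 of 9 were lower than in maDCs, beside 16.8%. Their part in the Pmaip1 values was not tested.

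Bbc3 encodes Puma, which binds all the main anti-apoptotic proteins and is known to respond to p53 and to FOXO factors. Its probe (chr7:16903403-16903462, plus strand) read 2.40 in imDCs, 4.14 in maDCs, 2.62 in sDCs and 2.80 in antibody-treated sDCs. The maDC level stood alone: 3.35-fold above imDCs and 2.86-fold above sDCs, while sDCs and imDCs were 0.23 apart. The handling and stress list holds 10 genes that cell isolation induces. Of these, 7 were higher in maDCs than in imDCs, beside 21.6% of all genes, and 5 in sDCs than in imDCs, beside 25.4%. Their part in the Bbc3 values was not tested.

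Bcl2l11 encodes Bim, whose loss prolongs the life of DCs in mice. The probes shown above gave 1 answer for maDCs and several for sDCs. The downstream, brightest probe read 1.97 in imDCs, 3.39 in maDCs, 3.23 in sDCs and 3.19 in antibody-treated sDCs. The middle probe read -1.37, -0.29, -2.13 and -1.93 in that order, and the upstream probe read -3.18, -1.63, -3.37 and -3.13. All 3 were higher in maDCs than in imDCs, by 1.43, 1.08 and 1.55 from the brightest to the dimmest. In sDCs the downstream probe stayed 1.26 above imDCs, whereas the middle and upstream probes, both crossing splice junctions, were 0.75 and 0.20 below them.

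Against maDCs the same split appeared. The downstream probe differed by -0.16, and the middle and upstream probes by -1.83 and -1.75. Counted from the upstream probe, the middle one lies 28.6 kb and the downstream one 32.7 kb along the gene. The gap between the highest and lowest probe was 1.67, against a median of 0.76 over 1257 other genes with 3 probes well above background, of which 14.1% had a gap as wide or wider. Between maDCs and imDCs that gap was 0.47, and 75.2% of those genes had one as wide. Thus the level of Bcl2l11 in sDCs depended on the probe, and a spread of that size was not rare among other genes. Reads of each transcript form are not part of an array, so which form each probe measured was not tested.

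**Figure D3:**
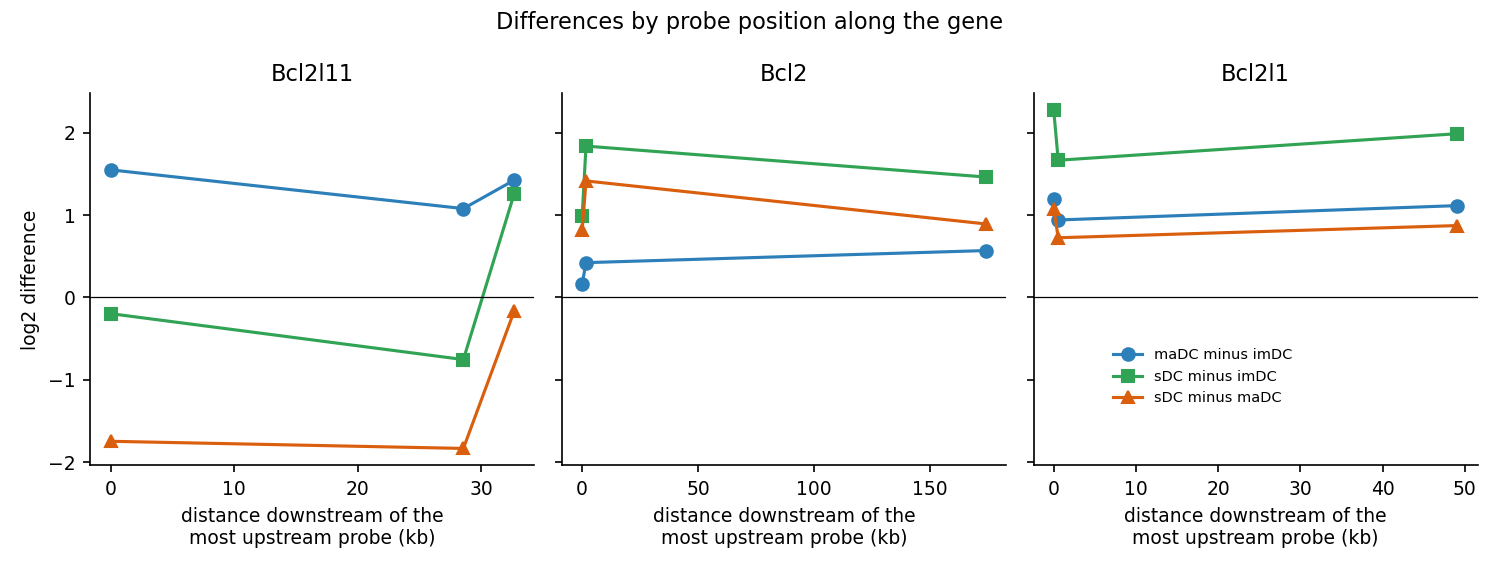
Log2 difference of each probe (vertical axis) against its distance in kb downstream of the most upstream probe of the gene (horizontal axis), for the members with 3 probes; colours and symbols stand for the 3 comparisons between imDCs, maDCs and sDCs. For Bcl2l11 both sDC differences are higher at the downstream probe than at the other 2, and the maDC difference stays between 1.08 and 1.55.

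Bid encodes a protein that caspase-8 cleaves and so links death receptors to mitochondria. Its probe read 1.51 in imDCs, 0.43 in maDCs, 0.84 in sDCs and 0.99 in antibody-treated sDCs. The imDC level was the highest, and maDCs were 2.11-fold below it; in sDCs the difference of -0.67 was under 2-fold. The summed signal of the neutrophil list was also highest in imDCs. Of its 11 measured genes, 9 were lower in maDCs and 9 in sDCs than in imDCs, beside 10.8% and 16.1% of all genes. Mmp8 and Csf3r went the other way in sDCs, by 1.04 and 0.86. The part of these cells was not tested. Bad encodes a BH3-only protein that survival kinases phosphorylate and hold inactive. Its plus-strand probe was dim and read -4.06, -4.41, -5.04 and -4.75 in imDCs, maDCs, sDCs and antibody-treated sDCs, with sDCs lowest by 0.98 relative to imDCs, just under 2-fold. The minus-strand probe read -3.49, -2.94, -3.39 and -3.27, which is not a reading of the strand of the gene in RefSeq.

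**Figure D4:**
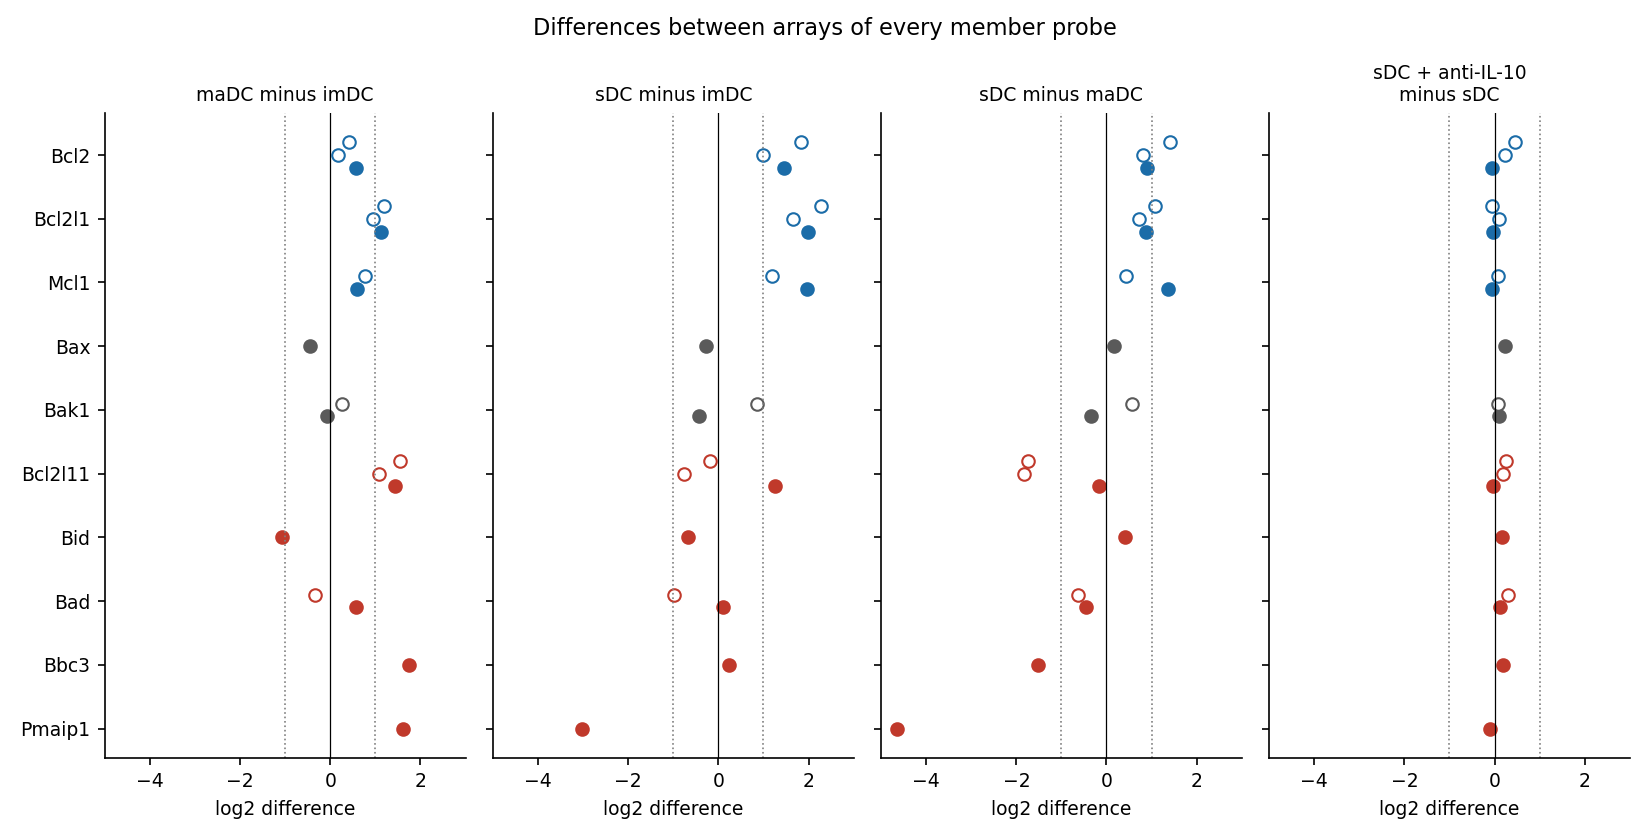
Log2 difference (horizontal axis) of every member probe in the 4 comparisons, coloured by role (blue anti-apoptotic, grey executioner, red BH3-only); filled points are the brightest probe of each gene, open points its other probes and dotted lines mark 2-fold. Anti-apoptotic probes all lie right of 0 in sDCs against imDCs and against maDCs, and Pmaip1 lies farthest to the left in both.

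Neutralization of IL-10 during the sDC culture came with no member difference of 2-fold. Of 19 probes, 0 were higher and 0 lower, beside 0.918% higher and 1.14% lower of 26902 measured probes; at 1.5-fold the members still counted 0 each way, beside 2.62% and 4.28%. The anti-apoptotic probes differed by -0.07 to 0.46, those of the executioners by 0.08 to 0.23 and those of BH3-only genes by -0.11 to 0.29. Over all probes well above background on both arrays, 92.9% lay within 0.5, and the SD was 0.29. Bcl2 and Bcl2l1 differed by -0.05 and -0.03 at the probes spotted 10 times, with SDs between pairs of spots of 0.048 and 0.057, and Bax by 0.23 with 0.079. The Bcl2l1 difference was smaller than its spot SD, that of Bcl2 about equal to it and that of Bax larger. These differences are means over spots, with standard errors over spots of 0.018 for Bcl2l1, 0.016 for Bcl2 and 0.025 for Bax. Such errors cover spotting and scanning alone, and with 1 culture each the differences cannot be set against the spread of cultures. Stromal markers had a median difference of -0.93 and neutrophil markers one of 1.05 between these cultures; their part was not tested.

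The members with the widest ranges were set beside 12932 other genes well above background on all 4 arrays, by the root mean square distance between the 4 levels after each gene was centred on its own mean. For Pmaip1 the nearest were H2bc23, a histone gene, at 0.064 and Il4 at 0.12 log2 units. Bcl2l1 was nearest to Rab33b at 0.018 and Spa17 at 0.030. Mcl1 was nearest to Ms4a6d at 0.016 and Dse at 0.023. With 4 arrays such closeness is a description of likeness over these cultures and no more.

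Other genes of the family were read from a list of 17, of which 15 were on the array and 13 were measured; Bcl2a1a and Bcl2a1d were not on it, and Bcl2l10 and Hrk were not well above background in any comparison. In maDCs 3 of the 13 were higher than in imDCs and 1 lower, with a median of 0.63 beside 0.18 over all genes. Against imDCs, sDCs had 4 of the 13 higher and 6 lower, with a median of -0.31 beside 0.21. The shares over all genes were 21.6% higher and 10.8% lower in the first comparison, and 25.4% and 16.1% in the second. Bcl2a1b and Bcl2a1c encode A1, an anti-apoptotic protein induced by NF-kB, and differed by -3.05 and -3.92 between sDCs and imDCs. These are near-identical copies whose probes may not tell them apart, and their direction was opposite to that of Bcl2, Bcl2l1 and Mcl1. Bok, an executioner-like gene, was 2.78 higher in sDCs than in imDCs and 2.02 higher than in maDCs. Bnip3, a hypoxia-induced gene of mitophagy, was 2.24 higher in maDCs and 4.07 higher in sDCs than in imDCs. Bmf, a BH3-only gene, was 1.82 higher in maDCs while in sDCs it was 2.82-fold lower at its brightest probe and -0.13 to 0.92 at its others, all against imDCs. Bcl2l14 was 4.25 lower in sDCs, and its other probe gave -1.34. Bik, a BH3-only gene, was 1.16 higher in sDCs than in imDCs. Bcl2l13, which acts in mitophagy, was -1.03 in maDCs and -1.56 in sDCs against imDCs. Bnip3l, a relative of Bnip3, gave 1.05 and 1.25 in the same comparisons but -0.32 and 0.13 at another probe. Bcl2l12 differed by -0.31 between sDCs and imDCs, with 1.39 at its other probe, and Bcl2l15 by -0.13. For Bcl2l2 the brightest probe gave 0.78 in sDCs against imDCs and another 2.10, and for Becn1 the values were -1.20 and 0.10.

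**Figure D5:**
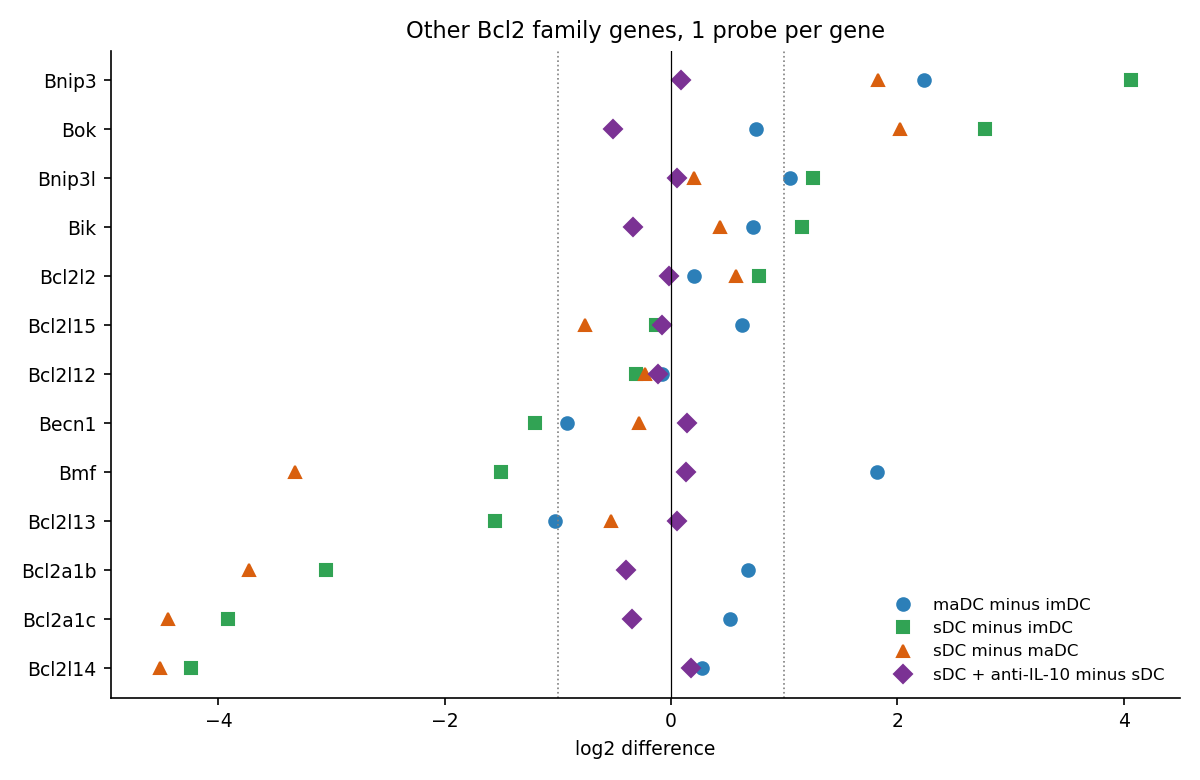
Log2 difference (horizontal axis) of the brightest probe of 13 other Bcl2 family genes, with a symbol and colour for each of the 4 comparisons and dotted lines at 2-fold. Bnip3 and Bok lie to the right and Bcl2a1b, Bcl2a1c and Bcl2l14 to the left in sDCs against imDCs, and all 13 lie within 2-fold under the antibody.

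Among genes that act after mitochondria are opened, the caspases and their inhibitors were read from separate lists. Of 16 genes of the apoptosome and the caspases, 0 were higher in any comparison; 1 was lower in maDCs than in imDCs and 2 in sDCs than in imDCs. Over all genes 21.6% were higher and 10.8% lower in maDCs than in imDCs, and 25.4% and 16.1% in sDCs. Apaf1, the scaffold of the apoptosome, was 2.14-fold lower in maDCs than in imDCs at its brightest probe, but its other 2 probes gave -0.63 and 0.75, so no direction is given for it. Of 8 inhibitors of apoptosis, 2 were higher and 1 was lower in maDCs than in imDCs, and 1 of 7 measured was higher and 2 lower in sDCs, to be read beside the same shares over all genes. Birc5, which encodes survivin and is expressed in dividing cells, differed by -1.47 in maDCs and by -3.48 in sDCs from imDCs.

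Of 10 measured genes of death receptors and their adaptors, 2 were higher in maDCs than in imDCs and 0 lower, beside 21.6% and 10.8% of all genes. In sDCs there were 2 higher and 1 lower, beside 25.4% and 16.1% of all genes. Tnfsf10, the ligand TRAIL, was 2.62 higher in maDCs than in imDCs. Tnfrsf1a, the receptor of TNF, was 1.03 higher in sDCs than in imDCs and 1.46 higher than in maDCs.

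Of 12 genes on a list of p53 and its targets, 5 were higher in maDCs than in imDCs and 0 lower, beside 21.6% and 10.8% of all genes. The median of the list was 0.57 beside 0.18 over all genes. The 5 were Phlda3 (2.17), Mdm2 (1.79), Cdkn1a (1.66), Sesn2 (1.54, with 0.81 at its other probe) and Gadd45a (1.27), beside the values of Bbc3 and Pmaip1 given above. Aen (-0.84, with -1.02 at its other probe) and Ccng1 (-0.39, with 0.27) were below imDCs at their brightest probes. Trp53 itself gave 0.63 and -0.49 at its probes. Against maDCs, 4 of the 12 were lower in sDCs, with a median of -0.95 beside 0.03, where 14.2% of all genes were higher and 16.8% lower. These 4 were Perp (-5.40), Phlda3 (-1.54), Cdkn1a (-1.13) and Gadd45a (-1.05). All these proteins are also reached by routes other than p53, and the part of p53 was not tested.

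Among 14 genes known to regulate transcription or turnover of the family, 5 were higher and 1 lower in maDCs than in imDCs, and in sDCs 2 exceeded imDCs and 1 was below. Over all genes 21.6% were higher and 10.8% lower in maDCs than in imDCs, and 25.4% and 16.1% in sDCs. Foxo1, one of the FOXO factors known to drive Bcl2l11 and Bbc3, was 3.35 higher in maDCs than in imDCs, 1.56 higher in sDCs than in imDCs and 1.79 lower in sDCs than in maDCs. Pim2, a survival kinase, was 1.57 higher in maDCs than in imDCs. Under the antibody 0 genes of any of these lists differed by 2-fold, beside 0.862% of all genes higher and 1.26% lower.

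Start-site windows of 250 bases were read for the members from RefSeq in build GRCm38.p6, because several members were higher together in maDCs. There were 15 windows for 9 members. No window was read for Pmaip1, so the motif results below do not cover that member. The FOXO motif GTAAACA, searched on both strands, was found in 2 of the 15 windows, beside 3.17% of all 32851 windows of this length. The motif was chosen after the members' values were seen, and some windows of Bbc3 overlap, so these shares are a description only. The part of FOXO factors in the member values was not tested. The windows with a match were 1 of Bcl2l11 and 1 of Bbc3, members with several windows each. These are shown with the match in capitals, 5′ to 3′ on the plus strand, the strand of both genes; in the Bbc3 window the match is on the opposite strand and reads as its reverse complement.
Bcl2l11, chr2:128125788-128126037: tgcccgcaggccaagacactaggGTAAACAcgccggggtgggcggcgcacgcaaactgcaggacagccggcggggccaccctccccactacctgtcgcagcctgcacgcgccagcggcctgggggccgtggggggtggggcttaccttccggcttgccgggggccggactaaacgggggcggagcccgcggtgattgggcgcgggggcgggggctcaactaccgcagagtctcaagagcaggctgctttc
Bbc3, chr7:16310011-16310260: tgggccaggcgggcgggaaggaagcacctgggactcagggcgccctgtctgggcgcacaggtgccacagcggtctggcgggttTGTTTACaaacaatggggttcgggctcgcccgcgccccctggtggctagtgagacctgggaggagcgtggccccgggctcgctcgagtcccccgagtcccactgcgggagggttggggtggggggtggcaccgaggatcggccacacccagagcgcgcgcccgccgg
The matches begin 227 and 167 bases before the start site in Bcl2l11 and Bbc3. The NF-kB consensus was found in 2 of the 15 windows, 1 of Bcl2l1 and 1 of Bbc3, beside 7.25% of all windows. The STAT motif TTCNNNGAA and the CRE motif TGACGTCA were found in none of the 15, and in 7.02% and 1.55% of all windows. The motifs do not overlap with each other in these windows. A window before the start of 1 transcript can lie inside a longer transcript of the same gene, and a match is a stretch of letters and no evidence of binding; no binding was measured here.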

How the data were processed

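The authors deposited, for each of the 4 arrays, a scanner table with a background-subtracted intensity per spot, made with Agilent Feature Extraction 10.5.1.1 per the file headers; version 9.1 is named in the submitters' processing notes. A table of log2 values was deposited too; its columns share a median of 6.30 and correlated with log2 intensity at 0.997 to 1.00 across probes.

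Here the processed intensity was put on the log2 scale, and each array's 75th percentile over 43379 non-control spots was subtracted. Outlier-marked spots (76 to 148 per array) were dropped, and spots of a probe were averaged. A probe counted as well above background on an array where at least 50% of its spots were so marked; such spots made up 61.2% to 69.7% of an array. All probes were named by the tables' gene names, updated through RefSeq (GRCm38.p6) by accession (25097), symbol (6333) or synonym (1640); 8104 had no match. A probe measured on 1 side of a comparison gave a bound, against the lowest signal of a probe well above background on the other array or its own signal there, whichever was higher. The number of arrays, 1 per culture, limits the precision, and no test was possible.

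The rule for named genes took all members, the measured genes of the other family list, and from each further list up to 4 genes per comparison with the largest measured differences, of which some are printed; Gadd45a, the fifth of its list in maDCs, was named after its value was seen. Members, gene lists and motifs were chosen with earlier results of these data known, and the motifs also after the members' values were seen. The alternatives were quantile normalization, scaling to the median of spots well above background, normexp background correction in limma 3.58.1 (R 4.3.3), the log2 table of the authors, outlier spots kept, probes well above background on all 4 arrays, a 1.5-fold threshold and the median over a gene's probes. The calculations ran in Python 3.11.15 with numpy 2.4.6 and pandas 2.3.3 and were tested on simulated data.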

Additional observations from a re-analysis of the deposited data

How the results depend on the processing

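With 1 array per culture, nothing separates a culture from its array, and depth of signal limits the dim probes of Bad and of Bcl2, Bcl2l1 and Bcl2l11 most. Of the counts of member probes under the alternatives, 51 stayed within 1.5 times and 5 did not. These tallies, and those of single genes below, include alternatives that could change little. All 19 member probes were well above background on all 4 arrays, so the limit to such probes could change no member value. Keeping outlier spots could change only the 3 member probes spotted 10 times. The single lower probe in sDCs against imDCs became 2 with quantile normalization, 2 with scaling to the median of spots well above background and 2 with the authors' log2 table, the added probe being the plus-strand probe of Bad (-1.43, -1.01 and -1.39), and 4 at 1.5-fold. The 3 higher probes in sDCs against maDCs became 7 at 1.5-fold. Among the values of single genes, 281 stayed on the same side of the 2-fold threshold, and 15 of these changed sign below it: 5 of Bad, 3 of Bak1 and 7 in the antibody comparison. Bad in sDCs against imDCs, 0.10, ranged from -0.98 to 0.25, and Bak1, -0.42, from -0.54 to 0.21. With the median over probes, Bcl2l11 in sDCs against imDCs turned from 1.26 to -0.20, its difference from maDCs went from -0.16 to -1.75, and that of Mcl1 went from 1.37 to 0.90; the probes differ in size, as shown in the report. Quantile normalization moved the median of all probes from 0.14 to -0.08 in maDCs and from 0.23 to -0.02 in sDCs against imDCs. Of all calls, 64.7% were higher in maDCs against imDCs, and 50.5% with quantile normalization; for sDCs against imDCs the shares were 62.5% and 50.8%. The Bad alternative of the RefSeq strand was chosen after seeing the data. No paired analysis was possible because each culture has 1 array and the labels carry no replicate numbers.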
